A study of Mus musculus with 6 samples.

Results

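The 7 genes described here are Wnt2, Wnt9b, Rspo3, Dkk3, Kit, Cdh13 and Ccdc3, which encode Wnt signals of the liver endothelium or mark the endothelium of the central vein. They were taken by name from a table of 51165 gene rows, and all 7 were found and passed the filter on low counts. RNA was sequenced from liver sinusoidal endothelial cells of 3 NICeCA and 3 wild type libraries of C57BL/6 mice aged 7 to 8 weeks. Both genotypes received tamoxifen by intraperitoneal injection, which per the labels switched on Notch signalling in the NICeCA mice. The allele behind the name NICeCA, the promoter that drives its recombination, and the number of animals per library are stated neither in the labels nor in the table. P-values therefore measure the spread between libraries, which may in part be technical.

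Wnt proteins are secreted, lipid-modified signals that bind Frizzled receptors and LRP co-receptors and stabilise beta-catenin in the receiving cell. R-spondins strengthen the signal by keeping Wnt receptors at the cell surface. In the liver, endothelial cells of the central vein and the neighbouring sinusoids are known as the main source of Wnt2, Wnt9b and Rspo3, and these signals maintain the gene programme of the surrounding hepatocytes.

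Promoter sequences from RefSeq on build GRCm38.p6 were at hand for 4 of the 7 genes, Wnt2, Wnt9b, Kit and Ccdc3. Those of both Wnt ligands and of Ccdc3, the gene that did not differ, are shown so that members with unlike results can be set side by side. Each run is the 250 bases before the annotated transcript start, 5′ to 3′ on the gene's own strand, and capitals mark each CG dinucleotide.
Wnt2, chr6:18030446-18030695, minus strand: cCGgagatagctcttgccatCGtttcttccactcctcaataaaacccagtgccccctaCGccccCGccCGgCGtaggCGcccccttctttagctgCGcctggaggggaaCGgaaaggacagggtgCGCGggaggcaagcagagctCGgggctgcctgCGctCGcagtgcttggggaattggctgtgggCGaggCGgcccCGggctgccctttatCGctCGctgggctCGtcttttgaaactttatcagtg
Wnt9b, chr11:103749822-103750071, minus strand: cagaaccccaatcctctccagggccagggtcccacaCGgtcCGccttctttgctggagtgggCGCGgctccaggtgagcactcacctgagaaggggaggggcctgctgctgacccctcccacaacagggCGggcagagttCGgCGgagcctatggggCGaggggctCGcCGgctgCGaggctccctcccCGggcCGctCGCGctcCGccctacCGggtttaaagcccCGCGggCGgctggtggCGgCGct
Ccdc3, chr2:5137526-5137775, plus strand: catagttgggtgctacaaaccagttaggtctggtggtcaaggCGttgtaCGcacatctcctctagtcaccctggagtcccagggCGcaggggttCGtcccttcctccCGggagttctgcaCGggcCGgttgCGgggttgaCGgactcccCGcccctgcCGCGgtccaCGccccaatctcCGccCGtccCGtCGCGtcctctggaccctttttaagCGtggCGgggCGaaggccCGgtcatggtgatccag

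The 3 printed runs hold 20, 22 and 22 CG dinucleotides. Over the full windows of 300 bases (250 before and 50 after the start), Wnt2 had 27, Wnt9b 29 and Ccdc3 28 CG dinucleotides, against a median of 7.0 over all 32851 windows. Their GC content was 65.7%, 71.7% and 66.3%, against a median of 52.7%. The windows were searched on both strands for 4 motifs. TGGGAA, the core of the site of RBPJ, the DNA-binding partner of Notch, was in 25.6% of all windows. An E-box of the kind bound by Hes and Hey factors, CACGTG, was in 7.15%. The TCF/LEF core CTTTGA was in 16.0% of all windows. AGATAA, a form of the GATA site, was in 11.2%. None of the 4 occurred in the windows of Wnt2, Wnt9b, Kit or Ccdc3, which says only that these letters are not there. Other forms of these sites were not searched for. The Wnt2 window lies inside the gene span of the deposited table, which runs further upstream. The Wnt9b and Ccdc3 windows lie inside the RefSeq gene spans, which reach 103775272 for Wnt9b and start at 5137311 for Ccdc3.

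Library totals ran from 26254649 to 30034191 counts, and levels are given as CPM (counts scaled to library size with TMM factors). Hey1, a gene that Notch is known to induce, was at 24.5, 33.1 and 39.3 CPM in NICeCA 1, 2 and 3. In wild type 1, 3 and 4 it was at 5.19, 6.06 and 6.31 CPM, below every NICeCA library. Of 6 listed Notch targets, all 6 had positive log2 fold changes. Higher without overlap were 4 of them, as were 11.6% of all tested genes, while Hey2 (0.34 ± 0.36) and Hes1 (0.43 ± 0.18) overlapped. By edgeR 1 passed as higher, as did 0.0253% of tested genes, and DESeq2 called 4 higher, against 3.66%. Pan-endothelial markers (18 genes) summed to between 16170 and 23092 CPM in NICeCA, with NICeCA 3 the lowest, and to between 23465 and 24319 CPM in wild type. Neutrophil markers (11 genes) summed to 3121, 4420 and 15983 CPM in NICeCA and to 999, 156 and 2838 CPM in wild type. Smooth muscle markers (7 genes) summed to between 39.5 and 50.6 CPM in NICeCA and to between 18.5 and 22.5 CPM in wild type. All 6 tested had positive log2 fold changes, and Myh11, smooth muscle myosin, rose by edgeR (1.59 ± 0.15; adjusted p = 0.0367). B cell markers (8 genes) summed to 18.5, 14.5 and 15.8 CPM in NICeCA and 6.96, 2.76 and 2.49 CPM in wild type. The 6 tested were all higher without overlap, as were 11.6% of all tested genes. DESeq2 called 4 of them higher, where it called 3.66% of all tested genes higher. By edgeR 0 passed, with all 6 at an unadjusted p under 0.05. Sinusoidal endothelial markers (12 genes) summed to 24766, 19601 and 14181 CPM in NICeCA and 27926, 28594 and 28277 CPM in wild type. All 12 had negative log2 fold changes, at a median of -0.54. Of them, 8 were lower without overlap, as were 11.8% of all tested genes. Of the 12, 0 passed by edgeR, and 4 had an unadjusted p under 0.05. DESeq2 called 2 lower, where it called 1.93% of all tested genes lower. The part of these cells in the values of the 7 genes was not tested. In bulk RNA, fewer cells of a type and less RNA per cell cannot be told apart.

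Wnt2 fell in NICeCA cells, and 5 of its partners, Wnt9b, Rspo3, Dkk3, Kit and Cdh13, had lower levels there in every library without passing the test over all genes. Ccdc3, at about 3 CPM, did not separate the genotypes. By edgeR's quasi-likelihood test with Benjamini-Hochberg adjustment over 19795 genes, 1 of the 7 genes passed the threshold of 0.05, where 0.0202% of all tested genes passed as lower. In either direction it called 0.0455% of tested genes. At an unadjusted p under 0.05, 6 of the 7 were lower, as were 7.38% of tested genes. DESeq2 called 6 of the 7 lower, where it called 1.93% of all tested genes lower and 5.59% in either direction. The NICeCA libraries lay wholly below the wild type libraries in the same 6 genes, as in 11.8% of all tested genes. The median log2 fold change of the 7 genes was -1.94, beside -0.01 over all tested genes, and 6 had a value below -1, as did 1.59% of tested genes.

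**Figure D1:**
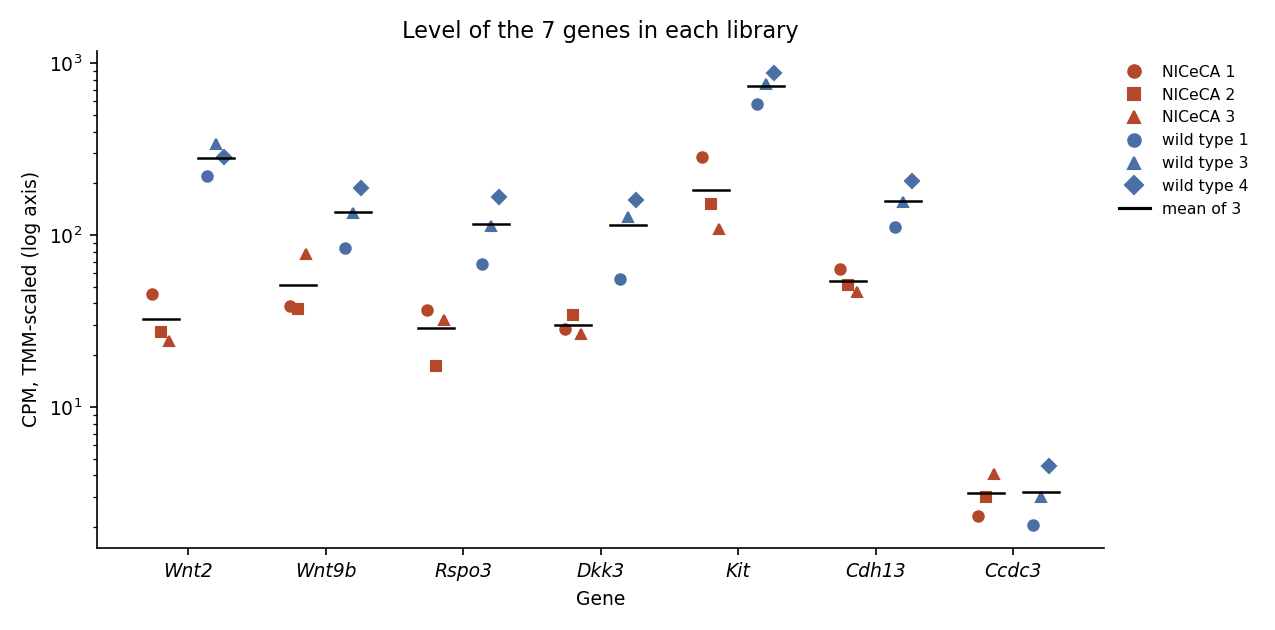
Level of each of the 7 genes in CPM on a log axis, 1 point per library, with the NICeCA libraries left of the wild type libraries and a bar at the mean of 3. The groups are apart in 6 genes and overlap in Ccdc3, whose means are 3.13 and 3.18 CPM.

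Wnt2 is a Wnt ligand whose reads were counted over chromosome 6 from 17985474 to 18032751 on the minus strand, in the coordinates of the deposited table. It had 1382, 803 and 728 reads in NICeCA 1, 2 and 3, against 6242, 8805 and 7847 reads in wild type 1, 3 and 4. On the scaled level these were 45.6, 27.1 and 24.2 CPM in NICeCA and 220, 337 and 283 CPM in wild type. Every NICeCA library was far below the lowest wild type library, and the spread within each genotype was under 2-fold. The mean was 32.3 ± 11.6 CPM in NICeCA and 280 ± 58.6 CPM in wild type (SD, n = 3 each), a ratio of 0.115 with a 95% interval of 0.0718 to 0.185. The log2 fold change was -3.12 ± 0.29 (SE), with an adjusted p of 0.0367 by edgeR and 1.08e-24 by DESeq2. Wnt2 had the most negative log2 fold change of the 12028 genes with a mean of at least 5 CPM. Its size moved little when a library was left out, from -3.45 to -2.95, but the edgeR call was lost when any library other than NICeCA 1 was left out. By edgeR the adjusted p was 0.340 without NICeCA 2, 0.178 without NICeCA 3, 0.0584 without wild type 1, 0.139 without wild type 3 and 0.0877 without wild type 4, and 0.0294 without NICeCA 1. DESeq2 called Wnt2 in all 6 of these sets.

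Wnt9b, the other ligand that central-vein endothelium is known to secrete, lies on chromosome 11 from 103727363 to 103749821 on the minus strand. It was at 38.5, 37.0 and 77.1 CPM in NICeCA 1, 2 and 3, against 83.7, 134 and 188 CPM in wild type 1, 3 and 4. NICeCA 3 came close to wild type 1, so the groups were separate by a narrow margin. The log2 fold change was -1.41 ± 0.38 (SE) with a 95% interval from -2.32 to -0.51, and Wnt9b did not pass by edgeR (adjusted p = 0.194), while DESeq2 called it (0.00628). Leaving out 1 library moved it between -1.84 (without NICeCA 3) and -1.11 (without wild type 4). DESeq2 no longer called it without NICeCA 1 (0.0556), NICeCA 2 (0.0900), wild type 3 (0.0559) or wild type 4 (0.0743).

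**Figure D2:**
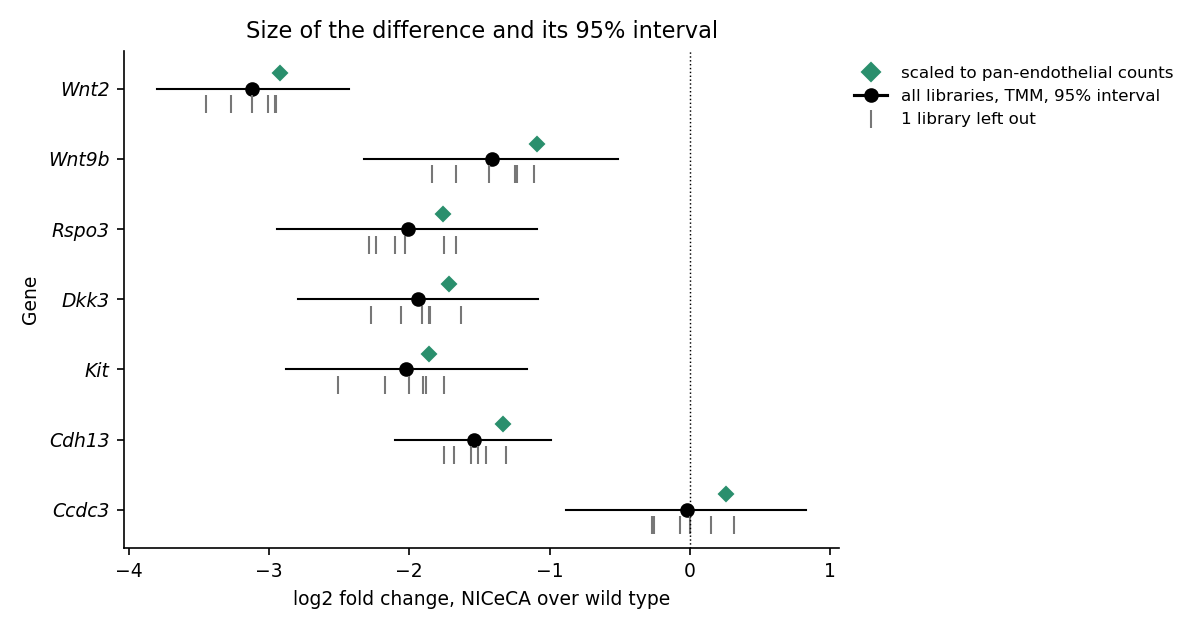
Log2 fold change of each gene, NICeCA over wild type, with its 95% interval from edgeR (black), the values with 1 library left out (grey ticks) and the value with libraries scaled to pan-endothelial counts (green). Wnt2 stands furthest from 0 at -3.12, and the interval of Ccdc3 runs from -0.88 to 0.83.

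The summed RNA of the Wnt ligands and the share of Wnt2 in it were both lower in every NICeCA library, and neither was tested. Among the 19 Wnt genes, 3 were at 0 in every library and 3 reached 100 reads in any library, namely Wnt2, Wnt9b and Wnt4, so the endothelial isolates held RNA of few ligands. Levels of different genes are compared per length, as deposited RPKM (counts divided by gene length and library total). The RPKM of all 19 genes summed to 21.5, 16.6 and 31.1 in NICeCA 1, 2 and 3, against 58.0, 92.9 and 96.4 in wild type 1, 3 and 4. The mean sum was 23.1 ± 7.35 RPKM in NICeCA and 82.4 ± 21.2 RPKM in wild type, which makes 28.0% of the wild type mean. Of the difference of 59.3 RPKM between the means, Wnt2 made up 70.7% and Wnt9b 29.5%.

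Wnt2 held 37.9%, 29.0% and 14.3% of the summed ligand RPKM in NICeCA 1, 2 and 3, against 62.7%, 63.2% and 49.9% in wild type 1, 3 and 4. Per length, it was below Wnt9b in each NICeCA library, though narrowly in NICeCA 1 (8.15 against 8.69 RPKM), and was the most abundant ligand in each wild type library. The mean share of Wnt2 was 27.1 ± 11.9% in NICeCA and 58.6 ± 7.54% in wild type, a difference larger than the spread within either genotype. Wnt9b held 40.4%, 49.9% and 57.7% in NICeCA and 30.1%, 31.8% and 42.0% in wild type, with overlapping groups. Wnt4, a ligand made by many epithelial and stromal cells, was at 10.1, 7.74 and 20.6 CPM in NICeCA and 10.2, 11.3 and 21.3 CPM in wild type. Its level overlapped between genotypes (log2 fold change -0.16 ± 0.43), while its share of the ligand RPKM was 14.4 ± 3.33% in NICeCA and 4.37 ± 1.23% in wild type. Shares sum to a fixed total, so a lower Wnt2 raises those of the other ligands by construction.

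**Figure D3:**
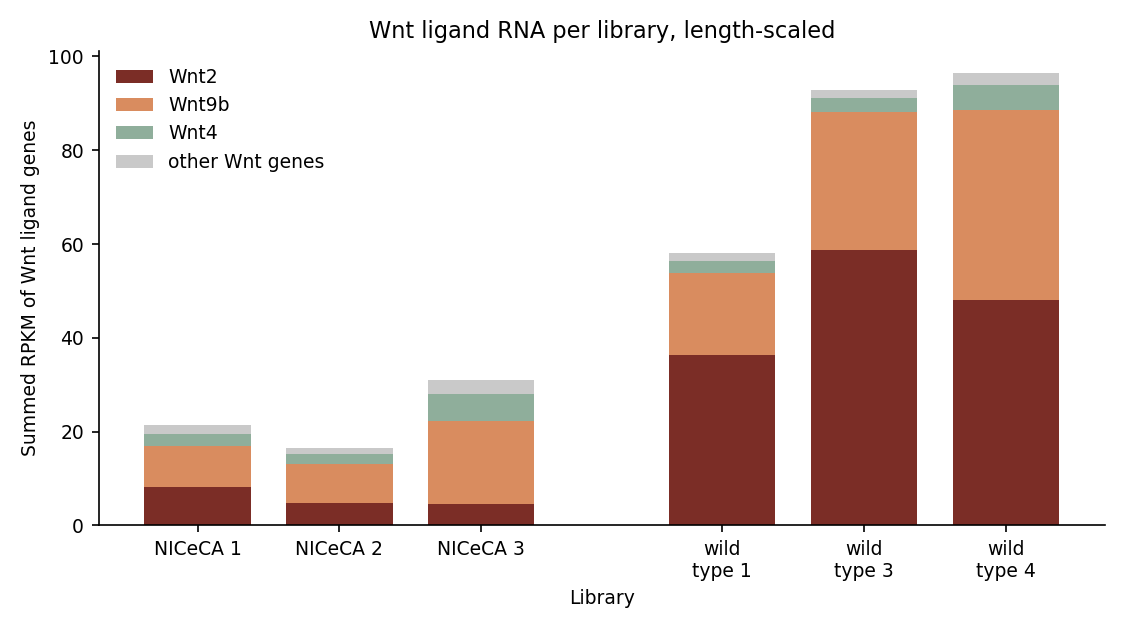
Summed RPKM of the 19 Wnt genes in each library, with NICeCA on the left and wild type on the right, stacked by gene. The bars reach 16.6 to 31.1 RPKM in NICeCA and 58.0 to 96.4 RPKM in wild type. The Wnt2 segment is smaller than the Wnt9b segment in the NICeCA bars.

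Rspo3 encodes the secreted R-spondin that acts with these ligands on hepatocytes near the central vein. It lies on chromosome 10 from 29453106 to 29535867 on the minus strand. It was at 36.8, 17.2 and 32.0 CPM in NICeCA 1, 2 and 3, against 67.9, 113 and 166 CPM in wild type 1, 3 and 4. The groups did not overlap, although the wild type libraries themselves spanned 2.45-fold. The log2 fold change was -2.01 ± 0.39 (SE), without passing by edgeR (adjusted p = 0.139), and DESeq2 called it (1.39e-05). It ran from -2.29 without wild type 1 to -1.67 without wild type 4, and DESeq2 called it in all 6 sets. Among the other R-spondins, Rspo1 stood at 1.60 ± 1.82 CPM in NICeCA and 1.09 ± 0.452 CPM in wild type, and Rspo2 and Rspo4 were too low to test. Stellate cells and fibroblasts, whose markers were present, can also express Rspo3. Their 13 markers summed to 1153, 1060 and 1052 CPM in NICeCA and to 1123, 1513 and 1743 CPM in wild type, and 4 of the 13 were called lower and 2 higher by DESeq2. Lrat, the retinol-esterifying enzyme of stellate cells, was at 29.3 ± 2.24 CPM in NICeCA and 52.6 ± 8.86 CPM in wild type. Others in the list went differently. Des was level, at 14.9 ± 0.622 CPM in NICeCA and 15.4 ± 3.12 CPM in wild type. Col1a1 was higher, at 51.2 ± 19.4 CPM in NICeCA and 12.1 ± 3.68 CPM in wild type. The part of these cells in the Rspo3 and Dkk3 values was not tested.

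Dkk3 encodes a secreted glycoprotein of the Dickkopf family whose effect on Wnt signalling is less settled than that of Dkk1. It lies on chromosome 7 from 112116019 to 112159121 on the minus strand. It was at 28.4, 34.3 and 26.6 CPM in NICeCA 1, 2 and 3, against 55.6, 128 and 159 CPM in wild type 1, 3 and 4. The NICeCA values were close together (coefficient of variation 13.6%), while those of wild type varied more (46.4%), wild type 1 being low. This gave a log2 fold change of -1.94 ± 0.36 (SE), with an adjusted p of 0.131 by edgeR and 9.14e-06 by DESeq2. Without wild type 1 it was -2.27 and without wild type 4 it was -1.63, and edgeR came closest to a call without wild type 1 (0.0528).

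Kit encodes the receptor tyrosine kinase for stem cell factor and is a known surface marker of central-vein and pericentral sinusoidal endothelium. It lies on chromosome 5 from 75574987 to 75656722 on the plus strand and was the most abundant of the 7 genes per length. It had 8651, 4467 and 3266 reads in NICeCA 1, 2 and 3, against 16488, 19660 and 24181 reads in wild type 1, 3 and 4. These correspond to 286, 151 and 108 CPM in NICeCA and 582, 753 and 872 CPM in wild type. The groups were apart, with NICeCA 1 the highest of its genotype and wild type 1 the lowest of the other. The log2 fold change was -2.02 ± 0.37 (SE), without passing by edgeR (adjusted p = 0.124), and DESeq2 called it (1.48e-06). Without NICeCA 1 it was -2.51, and without NICeCA 3 it was -1.75.

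Mast cells and early blood cells also carry Kit. Of the 12 markers of those cells, 4 were tested, all 4 had positive log2 fold changes, and the sum of the 12 was 281, 288 and 561 CPM in NICeCA and 215, 154 and 230 CPM in wild type. Hdc, the histamine-synthesising enzyme, which neutrophils can also express, made up most of that sum, at 278, 286 and 550 CPM in NICeCA and 214, 154 and 230 CPM in wild type, without overlap. The mast cell protease Cpa3 was at 0.0330, 0 and 0.0664 CPM in NICeCA and at 0.0353, 0 and 0 CPM in wild type, and Tpsab1, a mast cell tryptase, was at 0 in every library. The progenitor transcription factor Myb was at 1.87 ± 1.57 CPM in NICeCA and 0.130 ± 0.143 CPM in wild type. The part of these cells in the Kit values was not tested. Kitl, the ligand of Kit, was level between genotypes at 133 ± 15.2 CPM in NICeCA and 129 ± 2.25 CPM in wild type, with a log2 fold change of 0.04 ± 0.11.

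Cdh13 encodes T-cadherin, a cadherin held in the membrane by a lipid anchor that binds adiponectin. It lies on chromosome 8 from 118032249 to 119324929 on the plus strand. It was at 63.7, 51.4 and 46.9 CPM in NICeCA 1, 2 and 3, against 112, 155 and 205 CPM in wild type 1, 3 and 4. The values within NICeCA differed little, and the highest of them was well under the lowest wild type value. Cdh13 had a log2 fold change of -1.54 ± 0.23 (SE), with an adjusted p of 0.0962 by edgeR, the closest to the threshold after Wnt2, and 4.34e-07 by DESeq2. The value ranged from -1.75 to -1.31 when 1 library was left out, and DESeq2 called it in all 6 sets. The antisense rows Gm31893 and LOC105243303 within the gene had at most 30 reads in any library. RNA of adiponectin itself (Adipoq) was too low to test.

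Ccdc3 encodes a small secreted protein with a coiled coil that endothelial and fat cells are known to release. It lies on chromosome 2 from 5137776 to 5230871 on the plus strand. It had 70, 89 and 123 reads in NICeCA 1, 2 and 3, against 58, 78 and 125 reads in wild type 1, 3 and 4. Both genotypes covered the same range, and at 2.31, 3.01 and 4.09 CPM in NICeCA and 2.05, 2.99 and 4.51 CPM in wild type it was the lowest of the 7 genes. The log2 fold change was -0.02 ± 0.36 (SE; adjusted p = 0.984 by edgeR and 0.992 by DESeq2). Its 95% interval for the ratio, 0.545 to 1.78, leaves room for a change of nearly 2-fold either way, though not for one of the size of Wnt2. An antisense row, ENSMUSG00000097770.1, spans nearly the whole gene with 53, 57 and 80 reads in NICeCA and 39, 54 and 90 reads in wild type. Whether counting used strand is not stated in the labels or the table, so reads of Ccdc3 and of this row cannot be told apart.

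Per length, the order of the 7 genes differed between the genotypes. In NICeCA, Kit averaged 36.0 ± 18.0 RPKM, Cdh13 13.6 ± 2.06, Rspo3 12.3 ± 4.46, Wnt9b 11.6 ± 5.45, Dkk3 8.70 ± 1.06, Wnt2 5.81 ± 2.04 and Ccdc3 1.22 ± 0.369 RPKM (SD, n = 3). In wild type, Kit averaged 138 ± 29.4 RPKM, Wnt2 47.7 ± 11.2, Rspo3 47.0 ± 20.3, Cdh13 37.6 ± 11.5, Dkk3 31.6 ± 15.0, Wnt9b 29.2 ± 11.5 and Ccdc3 1.16 ± 0.462 RPKM. In wild type the 5 genes between Kit and Ccdc3 lay within each other's spread. In NICeCA, Cdh13, Rspo3 and Wnt9b did not differ beyond their spread. There Wnt2 ranked next above Ccdc3 but lay well apart from it, and the spread of Wnt2 touched that of Dkk3.

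Wnt2 was lower in NICeCA relative to each of the other 6 genes. On the CPM scale, which does not correct for gene length, the log2 ratio of Wnt2 to Wnt9b was 0.25, -0.45 and -1.67 in NICeCA 1, 2 and 3, against 1.40, 1.33 and 0.59 in wild type 1, 3 and 4. Relative to Wnt9b the ratio was lower by a mean of 1.73 on the log2 scale, and relative to Rspo3 the mean difference was -1.16. Relative to Kit it was -2.65, -2.48 and -2.17 in NICeCA and -1.40, -1.16 and -1.62 in wild type, a mean difference of -1.03, and the least among the 6 ratios. In each ratio the groups did not overlap, and a two-sided exact permutation test over libraries gave p = 0.10 for all 6 (0.10 after adjustment over the 6), which is the smallest value that 3 libraries against 3 allow.

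Within a genotype, the 7 genes ranked the libraries in mixed orders in NICeCA and in nearly the same order in wild type. Wild type 1 was the lowest wild type library in all 7 genes, and wild type 4 was the highest in 6, the exception being Wnt2, which was highest in wild type 3. The median deviation of the 7 genes from the wild type mean, on the log2 scale, was -1.56, -1.80 and -1.76 in NICeCA 1, 2 and 3, against -0.56, 0.06 and 0.55 in wild type 1, 3 and 4. Each NICeCA library was thus below wild type 1. In NICeCA no library was highest or lowest throughout. NICeCA 3 had the lowest Wnt2, Dkk3, Kit and Cdh13 but the highest Wnt9b and Ccdc3. Ccdc3 was the gene that deviated least in each NICeCA library, at -0.39, -0.01 and 0.43, and Wnt2 deviated most, at -2.60, -3.35 and -3.51. Summed markers of stellate cells and fibroblasts, hepatocytes and Kupffer cells had the same order in wild type, with wild type 1 the lowest and wild type 4 the highest. So did 13 further venous endothelial genes, at 5126, 5835 and 6815 CPM in wild type 1, 3 and 4. The sum of 10 periportal endothelial genes had the reverse order, at 4312, 3581 and 3224 CPM. Pan-endothelial markers also had the reverse order, within a narrow range. Hepatocyte markers (8 genes) summed to 774, 461 and 937 CPM in NICeCA and 504, 607 and 1091 CPM in wild type. Kupffer cell markers (8 genes) summed to 1253, 894 and 148 CPM in NICeCA and 105, 154 and 1684 CPM in wild type. The part of these cells in the spread of the 7 genes was not tested.

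**Figure D4:**
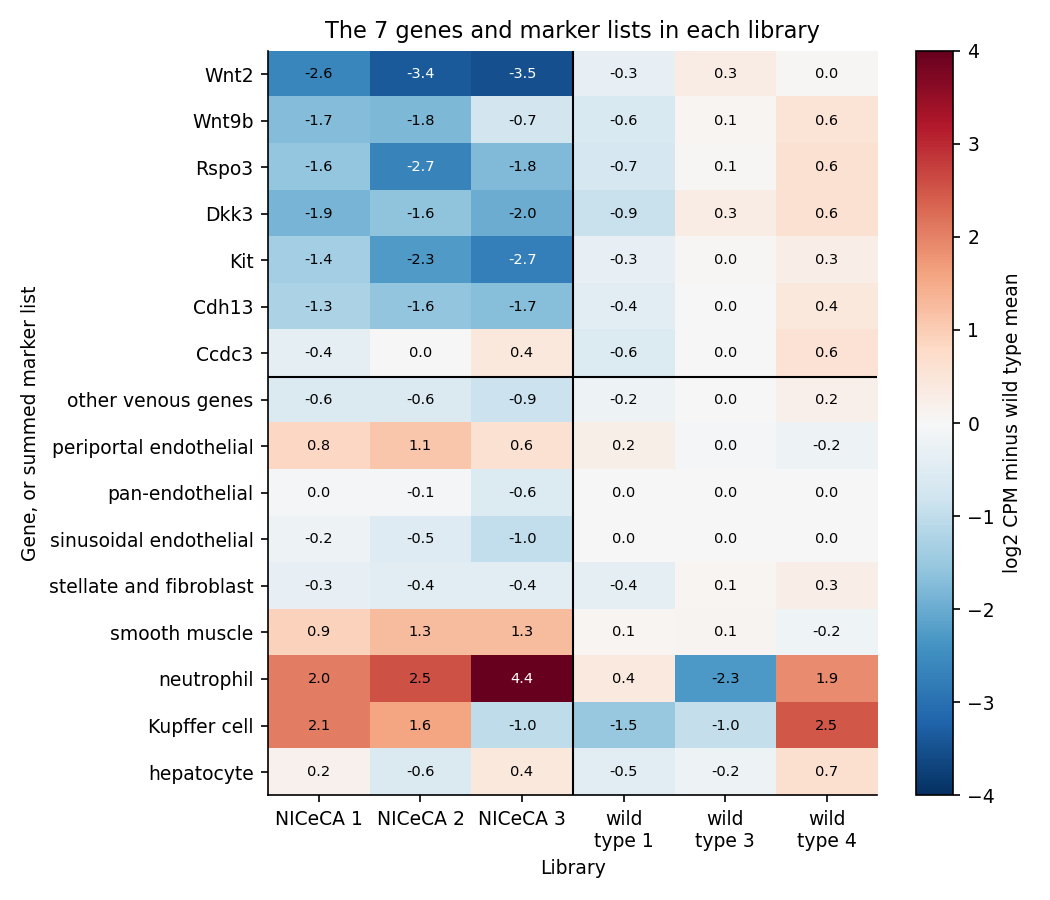
Log2 CPM minus the wild type mean for the 7 genes (above the line) and for summed marker lists (below it) in each library, with NICeCA left of wild type. Wnt2 is at -2.60 to -3.51 in NICeCA, the pan-endothelial sum is at -0.05 in NICeCA 1 and 2 and at -0.56 in NICeCA 3, and neutrophil markers are highest in NICeCA 3.

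Scaled to endothelial RNA in place of all RNA, 5 of the 7 genes kept separate groups, and Wnt9b and Ccdc3 overlapped. The share of all tested genes that were lower without overlap, 11.8%, was computed on the TMM scale only. The 5 genes therefore have no share beside them on the endothelial scale. Per 1000 reads of the 18 pan-endothelial genes, Wnt2 had 1.98, 1.18 and 1.50 reads in NICeCA 1, 2 and 3, against 9.06, 14.2 and 12.1 reads in wild type 1, 3 and 4. Kit had 12.4, 6.57 and 6.71 reads per 1000 in NICeCA and 23.9, 31.7 and 37.2 in wild type. Wnt9b had 1.67, 1.61 and 4.77 in NICeCA and 3.44, 5.65 and 8.02 in wild type, so on this scale NICeCA 3 lay above wild type 1. With this scaling, which moved the median of all genes to 0.23 on the log2 scale, Wnt2 was at -2.92 ± 0.25 and passed by edgeR (adjusted p = 0.0215). Rspo3 was at -1.76, Dkk3 at -1.72, Kit at -1.86, Cdh13 at -1.33 and Wnt9b at -1.09, and none of these 5 passed, as with TMM. Ccdc3 was at 0.26 ± 0.46, which turned its sign.

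Other genes of the Wnt pathway had log2 fold changes in both directions. Beside the members, the lists of ligands, R-spondins, secretion genes, receptors, inhibitors and target genes held 66 genes, of which 42 were tested. By edgeR 0 passed. At an unadjusted p under 0.05 there were 9, of which 6 were lower and 3 higher, where 7.38% of all tested genes were lower. DESeq2 called 2 of the 42 lower and 1 higher, where it called 1.93% of all tested genes lower and 3.66% higher. Of the 42, 22 had positive and 20 negative log2 fold changes, and the median was 0.04. Both genes of Wnt export were lower without overlap between groups, as were 11.8% of all tested genes. Wls, the carrier that takes Wnt proteins to the cell surface, was at 96.7, 82.5 and 74.4 CPM in NICeCA and 117, 119 and 108 CPM in wild type (log2 fold change -0.44 ± 0.12; adjusted p = 0.198 by edgeR). Porcn, which attaches their lipid, was at -0.64 ± 0.21 (0.222). Neither was called by DESeq2.

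Of 20 receptors and co-receptors, 15 were tested, with a median log2 fold change of -0.05. The Frizzled receptor Fzd4 stood at 495 ± 150 CPM in NICeCA and 562 ± 89.5 CPM in wild type, with overlapping groups. Ryk, a Wnt receptor with a kinase-like domain, was at -0.41 ± 0.10 and was the 1 receptor that DESeq2 called (0.0447), and the co-receptor Lrp6 was also at -0.41. Of 10 tested inhibitors Dkk3 was called lower by DESeq2 and the secreted Frizzled-related gene Sfrp2 higher (0.00793). Sfrp2 was at 0.924, 0.642 and 5.25 CPM in NICeCA and at 0.353, 0.0766 and 0.180 CPM in wild type, which is low in every library and highest in NICeCA 3. Dkk2 was at 1.40 ± 0.586 CPM in NICeCA and 0.460 ± 0.194 CPM in wild type and was not called.

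Of 8 tested genes that beta-catenin induces in many cells, 5 had positive and 3 negative log2 fold changes. Nkd1, a feedback inhibitor of Wnt signalling, was at 70.5, 50.5 and 38.2 CPM in NICeCA against 99.8, 111 and 96.5 CPM in wild type. Its log2 fold change was -0.95 ± 0.22, without passing by edgeR (adjusted p = 0.165), and it was the 1 target that DESeq2 called (0.00430). Axin2, the target used most often as a readout, was at 3.19 ± 0.564 CPM in NICeCA and 4.13 ± 0.472 CPM in wild type, with overlapping groups.

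Of 8 genes of the hepatocytes around the central vein, 5 were tested, at levels that differed widely. Cyp2e1, an ethanol-metabolising enzyme, was at 1.62, 1.28 and 2.49 CPM in NICeCA against 4.94, 15.4 and 18.1 CPM in wild type, a log2 fold change of -2.83 ± 0.52. Of the 5, 0 passed by edgeR (adjusted p = 0.124 for Cyp2e1), 2 had an unadjusted p under 0.05, and DESeq2 called Cyp2e1 and Cyp1a2 lower. Alb, the general hepatocyte gene for albumin, was at 471 ± 151 CPM in NICeCA and 426 ± 137 CPM in wild type. It does not stand for its list. Of 8 general hepatocyte markers, 2, Alb among them, had positive and 6 negative log2 fold changes, at a median of -0.48. Neither edgeR nor DESeq2 called any of them. The part of general hepatocyte RNA in the Cyp2e1 and Cyp1a2 values was not tested. Glul, glutamine synthetase, was at 674 ± 161 CPM in NICeCA and 928 ± 310 CPM in wild type, with overlapping groups. Which cells the Glul reads came from was not tested.

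The lists of other venous and of periportal endothelial genes leaned in opposite directions, with no gene of either passing by edgeR. Of 13 further venous genes 10 had negative log2 fold changes, with a median of -0.45, close to the -0.54 of the sinusoidal markers. Lower without overlap were 6 of them, as were 11.8% of all tested genes. By edgeR 0 passed, with 7 at an unadjusted p under 0.05, of which 6 were lower and 1 higher. The higher one was Aplnr, at 0.747 ± 0.334 CPM in NICeCA and 0.147 ± 0.128 CPM in wild type. Vwf was level, at a log2 fold change of -0.08 ± 0.31. DESeq2 called 0 higher and 4 lower, namely Thbd, Ptgs1, Plxnc1 and Bmp4, where it called 1.93% of tested genes lower. Thbd, the anticoagulant thrombomodulin, was at 312, 305 and 311 CPM in NICeCA against 603, 714 and 862 CPM in wild type (log2 fold change -1.23 ± 0.16; adjusted p = 0.0748 by edgeR). Ptgs1, a cyclooxygenase, was at -1.24 ± 0.24. All 10 arterial and periportal genes had positive values with no overlap, as in 11.6% of all tested genes, at a median of 1.04. The connexin Gja5 among them was at 42.4, 83.2 and 84.9 CPM in NICeCA and 16.1, 19.4 and 13.7 CPM in wild type. Of the 10, 0 passed by edgeR, where 0.0253% of tested genes passed as higher, and all 10 had an unadjusted p under 0.05. DESeq2 called 8 higher, where it called 3.66% of tested genes higher.

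The genes whose course over the 6 libraries was closest to Wnt2 were found by the root mean square difference of log2 CPM, centred on the wild type mean, among 12028 genes. The 5 closest were LOC105244363 (0.40), Shisa9 (0.56), 1110018N20Rik (0.63), Il13ra2 (0.64) and ENSMUSG00000085151.7 (0.64), all nearer to Wnt2 than any of the other tested members, of which Kit was nearest (0.76). Il13ra2, which encodes a decoy receptor for interleukin 13, was at 17.7, 11.0 and 6.71 CPM in NICeCA and 36.5, 65.5 and 66.2 CPM in wild type. LOC105244363, a long non-coding RNA row, was at 3.99, 2.80 and 2.16 CPM in NICeCA and 20.8, 29.1 and 13.5 CPM in wild type. It lies with 1110018N20Rik and ENSMUSG00000085151.7 within 73.7 kb of chromosome 2, from 167129314 to 167202996 on the plus strand. 1110018N20Rik (adjusted p = 0.0475) and ENSMUSG00000085151.7 (0.0367) fell by edgeR, and since they overlap on 1 strand their reads cannot be told apart. All 5 genes were chosen for a course like that of Wnt2, so their lower values in NICeCA follow from the choice.

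Closest to the mean course of the 7 genes were Slc18a2 (0.22), Ifitm10 (0.22), ENSMUSG00000090257.1 (0.24), Gm4524 (0.27) and Lhx6 (0.29). Of the members, which are themselves part of that mean, Cdh13 was at 0.18 and Wnt2 at 1.06. Slc18a2, a vesicular monoamine transporter, was at 8.98, 8.04 and 6.58 CPM in NICeCA and 17.9, 36.0 and 31.2 CPM in wild type. Lhx6, a LIM homeobox transcription factor, was at 19.8, 11.2 and 13.8 CPM in NICeCA and 38.3, 60.9 and 45.4 CPM in wild type. ENSMUSG00000090257.1 and Gm4524 overlap on the same strand of chromosome 16, and whether reads were counted in both was not tested. Of these 5, 0 passed by edgeR and all 5 had an unadjusted p under 0.05, and DESeq2 called each. They were chosen for their closeness to the members in these same libraries. Lower values in NICeCA thus follow from the choice, and these p-values add no separate evidence.

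The tested genes beside the members on the chromosome had log2 fold changes between -0.78 (Pdgfra, beside Kit) and 0.45 (Camk1d, beside Ccdc3). Of the 14 nearest protein-coding rows, 1 on each side of each gene, 11 were tested. By edgeR 0 passed, and 3 were lower at an unadjusted p under 0.05, as were 7.38% of all tested genes. DESeq2 called 1, where it called 5.59% of all tested genes in either direction. That gene was Gosr2 beside Wnt9b, at -0.47 ± 0.12 (adjusted p = 0.0381 by DESeq2). St7, beside Wnt2, had 274, 250 and 297 reads in NICeCA and 328, 324 and 338 reads in wild type, a log2 fold change of -0.40 ± 0.13. Kdr, the VEGF receptor gene beside Kit, was at -0.14 ± 0.23.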

How the data were processed

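Total RNA of 6 libraries was sequenced as paired reads of 150 bases on an Illumina instrument, per the labels. The authors deposited 1 table with whole-number read counts per gene, not normalised, and with the matching RPKM. The deposited RPKM equals the count divided by gene length and library total, with a largest relative gap of 5.0e-06 at 50 counts or more. Neither labels nor table name the aligner, the counter, the build or the strand setting. Coordinates are those of the table, and at least 1 end of each of the 7 genes matches RefSeq or GENCODE annotation of GRCm38.

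Counts were tested with edgeR 4.0.16 in R 4.3.3 (filterByExpr with a minimum count of 10, TMM, estimateDisp, glmQLFit and glmQLFTest at defaults), which left 19795 genes. Benjamini-Hochberg adjustment ran over all of them, with a threshold of 0.05. A gene is said to pass, rise or fall only by this test. The common dispersion had a square root of 0.283. SE is the log2 fold change over the square root of its F statistic, and 95% intervals use the fit's degrees of freedom. DESeq2 1.42.0 and limma 3.58.1 (voom) were alternatives, and the scripts were tested on simulated counts. CPM are TMM-scaled, as mean ± SD.

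The 7 genes, the lists and the tests were chosen with earlier results of these data known. Named genes were all members, called members of each list or else up to 4 with the smallest p, and the 5 closest in course to Wnt2 and to the mean of the 7 genes at a mean of at least 5 CPM. Alb, Lrat, Cpa3, Tpsab1, Hdc, Myb, Myh11, Hey1, the neighbouring and overlapping rows and some further list members named as examples were chosen after their values were seen.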

Additional observations from a re-analysis of the deposited data

How the results depend on the processing

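In the 8 settings that kept all libraries (DESeq2, voom, a robust prior, RLE size factors, pan-endothelial scaling, no filter, a mean of at least 1 CPM, and the replicate block), Wnt2, Wnt9b, Rspo3, Dkk3, Kit and Cdh13 kept their direction. Wnt2 ranged from -3.15 to -2.92 on the log2 scale. The number of genes called, 9, became 1107 with DESeq2, 5 with voom, 4 with pan-endothelial scaling, 111 with no filter and 0 with the replicate block, and ran from 0 to 14 with 1 library left out. Of the 7 genes 1 was called, against 6 with DESeq2, 5 with no filter and 0 with the replicate block, and 0 to 1 with 1 library left out. DESeq2 with 1 library left out, added after the data were seen, called 5 to 6. Wnt2 was at -3.04 with the replicate block (adjusted p = 0.613, edgeR) and from -3.45 to -2.95 with 1 library left out. The block leaves 1 residual degree of freedom. For the numbers 1 and 3 that both genotypes share, the correlation of deviations was -0.210 and -0.295. Deviations were centred within groups of 3 libraries, which ties such correlations to each other. They therefore cannot decide whether shared numbers pair the libraries. Ccdc3 changed sign, at 0.01 with voom, 0.26 with pan-endothelial scaling, 0.31 with the replicate block, and from -0.27 to 0.31 with 1 library left out. The mean share of Wnt2 in ligand RPKM was 32.5% in NICeCA and 64.6% in wild type on raw counts, from 21.7% to 33.4% in NICeCA and from 56.3% to 63.0% in wild type with 1 library left out. The cause of these shifts in calls was not tested. Ccdc3 has the fewest reads of the 7 genes, 58 to 125 per library.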
